A study of Mus musculus with 9 samples.

Results

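The solute carriers are membrane proteins that move ions, sugars, amino acids, nucleotides, vitamins and other small molecules across the cell surface and the membranes of organelles. In heart muscle, carriers at the cell surface take up fuel and exchange ions, and carriers of the inner mitochondrial membrane (the Slc25 family) pass adenine nucleotides, metabolites and cofactors into and out of the organelle where most of the cell's ATP is made. Carriers of lysosomes and vesicles, and importers of zinc and iron, complete the families described here. The members were the array probes whose code holds a mouse gene number of a gene named Slc and a digit, without Slc8a1, Slc4a2 and Slc4a3. The rule gave 148 probes for 125 genes, of 46657 probes on the array and 8102 genes named through such codes. It goes by symbol, so it also took in Slc9a3r1, which encodes a scaffold protein, and Slc7a6os, a gene named for lying opposite Slc7a6.

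RNA from hearts of FVB mice aged 14 days was hybridised to 9 Illumina Mouse-6 v1.1 bead arrays, 3 in each of 3 groups. K-line mice carried a transgene of a membrane transport protein mutated so that it stays active, N-line mice carried a transgene of its normal form, and control mice are labelled only as control samples. The promoter that drives the transgenes, and how many founders stand behind each line, are not given in the sources used here. Arrays are numbered within a group, but no label states that the numbers are separate animals. The p-values therefore reflect only how far these samples differ from one another, part of which may be technical.

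The 3 K-line arrays shared a slide of their own, and the N-line and control arrays shared another, so the slide and the line cannot be told apart in any K-line difference below. Between 17937 and 19021 probes were detected per array, arrays of a group correlated at 0.988 to 0.995 across probes, and K-line arrays correlated with the others at 0.969 to 0.981. All arrays are labelled male, but the arrays labelled K-line went against that label. All 3 showed Xist, which none of the other 6 did, and none of the 3 showed Kdm5d, Ddx3y or Eif2s3y. Apparent sex, too, cannot be told apart from K-line, and the K-line results cannot be given without those arrays. Of the tested members 2 lie on chromosome X, and neither passed the test in any comparison. The heart muscle genes Myh6, Mybpc3 and Ryr2 were detected on all 9 arrays.

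A probe was tested where it was detected, meaning brighter than the negative control beads at p under 0.05, on at least 3 arrays. This held for 73 member probes (49.3%) of 69 genes, against 42.2% of the whole array. The other 75 member probes were not tested: 67 were detected on 0 arrays, 5 on 1 array and 3 on 2 arrays. Those last 3 were the second probe of Slc38a9, the third of Slc11a1 and the second of Slc10a4, each seen on 2 K-line arrays. Levels are log2 intensities after background correction and quantile normalization, differences are log2 differences of group means, and a probe was called where limma's p-value, adjusted over all 19692 tested probes, was under 0.05. The median SD over the tested members was 0.14 in K-line, 0.11 in N-line and 0.13 in control arrays. A level of one probe is not set against that of another, since each probe has its own brightness.

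Against control, 20 of the 73 tested members (27.4%) were called in K-line hearts, 9 higher and 11 lower, where 24.3% of all tested probes were called. The share of the carriers was thus near that of the array as a whole. Higher calls made up 12.0% and lower calls 12.4% of all tested probes. The K-line and control arrays did not overlap for 29 members (39.7%), against 40.6% of all tested probes, and those of N-line and control for 17 (23.3%), against 19.7%. The median difference was -0.00 over the members and -0.01 over all tested probes, and the median size of a called difference was 0.56 among members and 0.53 among all called probes. In N-line hearts 1 of 73 members (1.37%) was called against control, where 0.929% of all tested probes were called. Between the lines 23 of 73 members (31.5%) were called, 10 higher and 13 lower in K-line, where 24.2% of all tested probes were called. The arrays of the lines did not overlap for 37 members (50.7%), against 39.5% of all tested probes.

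**Figure D1:**
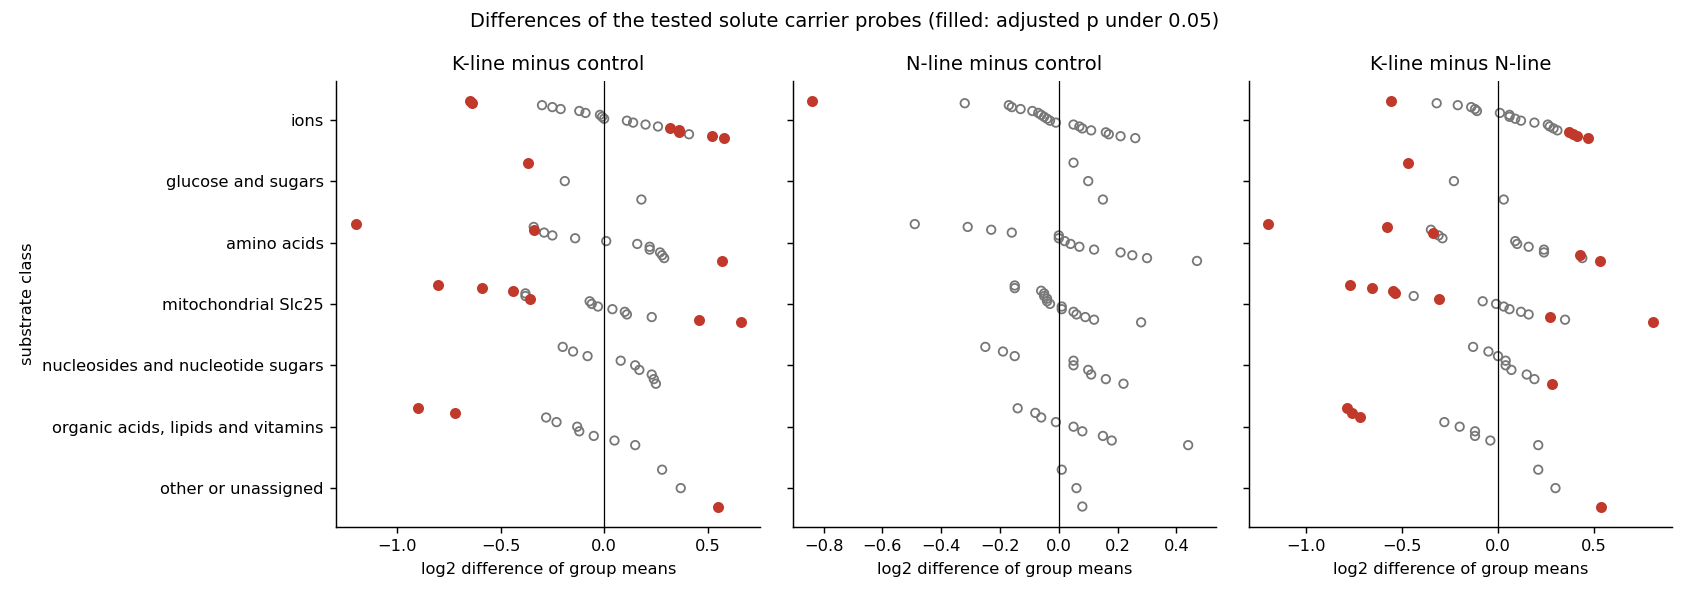
Log2 difference of group means (horizontal axis) of each of the 73 tested solute carrier probes, by substrate class, for K-line minus control, N-line minus control and K-line minus N-line. Filled points passed an adjusted p of 0.05: 20 in the first panel, 1 in the second and 23 in the third. The horizontal scales differ between panels.

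The largest rises in K-line hearts were of Slc25a36, Slc11a1, Slc38a9 and Slc66a1, which act on mitochondria, phagosomes and lysosomes. The 250 bases before the start of each of these 4 genes are shown from RefSeq (GRCm38.p6, 5′ to 3′ on the gene's strand), because these members moved in the same direction in K-line hearts. They lie at chr9:97111042-97111291 (minus strand, Slc25a36), chr1:74374953-74375202 (plus strand, Slc11a1), chr13:112660516-112660765 (plus strand, Slc38a9) and chr4:139310709-139310958 (minus strand, Slc66a1). Capitals mark a pair of motifs searched on both strands, the E-box core CACGTG and the estrogen-related receptor motif AAGGTCA, which do not overlap here.
Slc25a36 promoter: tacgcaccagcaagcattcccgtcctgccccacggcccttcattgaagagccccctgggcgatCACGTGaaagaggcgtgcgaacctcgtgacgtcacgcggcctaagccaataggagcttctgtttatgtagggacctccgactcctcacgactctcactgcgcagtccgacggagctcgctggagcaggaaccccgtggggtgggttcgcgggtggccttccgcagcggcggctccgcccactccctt
Slc11a1 promoter: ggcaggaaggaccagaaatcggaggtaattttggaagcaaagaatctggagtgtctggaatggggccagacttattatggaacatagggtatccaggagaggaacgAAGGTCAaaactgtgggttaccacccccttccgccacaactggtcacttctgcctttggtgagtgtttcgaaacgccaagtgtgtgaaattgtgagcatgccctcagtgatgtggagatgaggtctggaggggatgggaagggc
Slc38a9 promoter: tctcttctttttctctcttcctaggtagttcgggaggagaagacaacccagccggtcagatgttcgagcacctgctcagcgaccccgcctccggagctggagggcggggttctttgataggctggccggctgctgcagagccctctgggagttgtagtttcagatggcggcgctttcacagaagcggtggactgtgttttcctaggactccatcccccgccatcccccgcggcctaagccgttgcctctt
Slc66a1 promoter: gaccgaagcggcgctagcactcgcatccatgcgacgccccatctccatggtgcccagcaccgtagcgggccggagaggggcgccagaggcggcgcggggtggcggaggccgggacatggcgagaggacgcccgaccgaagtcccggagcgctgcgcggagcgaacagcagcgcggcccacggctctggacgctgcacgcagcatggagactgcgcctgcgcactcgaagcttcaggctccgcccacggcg
The Slc25a36 window holds an E-box core that starts 187 bases before the gene's start, and the Slc11a1 window holds an AAGGTCA that starts 144 bases before it. The letters of neither motif are in the Slc38a9 and Slc66a1 windows. Of 32851 mouse promoters of this length, 6.02% hold the E-box core and 4.08% AAGGTCA. Of 22 promoters of the 15 called solute carrier genes found in the table, 1 holds each motif (4.55%). The match is a description of the letters and not of binding.

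Among importers of iron, manganese and zinc, 1 of 2 tested Slc11 probes and 4 of 7 tested Slc39 probes were called higher in K-line than in control hearts. None was called lower, and higher calls made up 12.0% of all tested probes. These are separate families, set side by side here for description only. The zinc and copper families Slc30 and Slc31 had 1 tested probe each and 0 calls. Slc11a1, a proton-coupled transporter of iron and manganese in the phagosomes of macrophages, read 10.26, 10.51 and 10.30 on the K-line arrays, 9.90, 9.98 and 9.94 on the N-line arrays and 9.78, 9.72 and 9.84 on the control arrays with its brighter probe. All 3 K-line arrays lay above the other 6. The K-line difference from control was 0.58 (SE 0.09, adjusted p = 0.00161), and from N-line 0.41 (SE 0.09, adjusted p = 0.00951). A second, dimmer probe gave 0.41 against control (SE 0.15, adjusted p = 0.0703) and 0.47 against N-line (SE 0.15, adjusted p = 0.0441), so it was called in the comparison of the lines alone. Markers of macrophages and leukocytes moved with this gene: 9 of the 9 tested of 10 on the array were called higher in K-line than in control hearts, with a median difference of 1.53. Their summed level ran from 12.27 to 13.09 in K-line, 10.86 to 10.94 in N-line and 10.83 to 10.90 in control arrays. Ptprc, which marks all leukocytes, was detected on 3 of 3 K-line, 2 of 3 N-line and 0 of 3 control arrays, and Itgam on none of the 9. The part of these cells in the Slc11a1 difference was not tested. In a whole heart, more or fewer cells of a type and more or less RNA per cell cannot be told apart.

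The Slc39 family brings zinc, and for some members iron and manganese, into the cytosol. Of its 8 probes 7 were tested, and 4 were called higher and 0 lower in K-line than in control hearts, with a median difference of 0.32. Among the 4 was the dimmer Slc39a9 probe, detected on the 3 K-line arrays and on no other. That probe passed the filter only through the group where it is high, so its call adds no support. Slc39a11 read 7.82, 8.0 and 7.72 in K-line, 7.51, 7.57 and 7.53 in N-line and 7.23, 7.56 and 7.18 in control arrays. It was higher in K-line than in control hearts by 0.52 (SE 0.12, adjusted p = 0.00892), and the N-line arrays overlapped the control arrays. Between the lines Slc39a11 was not called, at 0.31 for K-line minus N-line (SE 0.12, adjusted p = 0.0764). Slc39a1, a zinc importer of the cell surface, read 10.16, 10.18 and 10.44 in K-line, 9.92, 9.81 and 9.93 in N-line and 9.90, 9.91 and 9.88 in control arrays. The K-line arrays were the highest 3, by 0.36 over control (SE 0.10, adjusted p = 0.0222) and 0.37 over N-line (SE 0.10, adjusted p = 0.0199). Slc39a14, which also carries iron that is not bound to transferrin, read 5.84, 5.87 and 5.64 in K-line, 5.37, 5.45 and 5.35 in N-line and 5.33, 5.54 and 5.52 in control arrays. Its K-line arrays did not overlap the others, and the differences were 0.32 against control (SE 0.10, adjusted p = 0.0371) and 0.39 against N-line (SE 0.10, adjusted p = 0.0154).

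The probes of Slc39a9 differed in their call. Its dimmer probe read 5.41, 5.18 and 5.37 in K-line, 4.96, 5.11 and 5.03 in N-line and 4.81, 5.0 and 5.08 in control arrays, and was not above background on any N-line or control array. It was at least 1.13-fold higher in K-line than in control hearts (fitted difference 0.36, SE 0.10, adjusted p = 0.029). The brighter probe gave 0.14 (SE 0.10, adjusted p = 0.35). Such a bound takes the place of a fold where a group is below background: in that group each array counts with its own signal or with the dimmest detected signal on the array, whichever is higher. The members of the family that were not called were Slc39a10 at 0.20 (adjusted p = 0.167) and Slc39a3 at -0.02 (adjusted p = 0.924), beside that brighter Slc39a9 probe. The direction of the 4 called probes and their calls were the same under each of 3 other scalings of the arrays. The differences were 0.71 to 0.82 for Slc39a11, 0.43 to 0.59 for Slc39a14 and 0.40 to 0.72 for the dimmer Slc39a9 probe. These scalings moved the K-line median over all tested probes from -0.01 to 0.09, 0.11 and 0.20. Higher calls were thus favoured, so keeping them is a weak check. The calls of 3 of the 4 probes were borderline, and leaving out any 1 of several arrays ended them while the differences kept their direction. Without control 1, control 2, control 3 or K-line 6 the Slc39a1 call ended (difference 0.27 to 0.37, adjusted p 0.0557 to 0.0744), and without control 1, control 2, K-line 3 or K-line 6 that of Slc39a9 did (0.28 to 0.38, adjusted p 0.0609 to 0.107). The Slc39a14 call ended without any 1 of control 1, 2 and 3, K-line 3 and 5 and N-line 2 and 4 (0.26 to 0.36, adjusted p 0.0515 to 0.131).

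Metals are also exported to organelles or stored. Slc30a6, a zinc transporter of the Golgi and the only tested member of its family of 5 probes, read 8.88, 9.05 and 8.79 in K-line, 8.86, 8.84 and 8.66 in N-line and 8.84, 8.83 and 9.08 in control arrays. The groups overlapped, and the difference between K-line and control hearts was -0.01 (SE 0.11, adjusted p = 0.95). The copper transporter Slc31a2 differed by -0.21 (SE 0.16, adjusted p = 0.373). Of 28 listed genes of ion handling that are not solute carriers, 8 were measured. Against control, 2 were called higher and 0 lower in K-line hearts (against 12.0% and 12.4% of all tested probes), with a median of 0.06. They were Ftl1, the ferritin light chain that stores iron, at 0.59 (SE 0.09, adjusted p = 0.00082), and the calcium pump Atp2b1 at 0.54 (SE 0.15, adjusted p = 0.0208). The ferritin heavy chain Fth1 gave -0.20 (adjusted p = 0.144). Mt1, a metallothionein that binds zinc, averaged 14.42 ± 0.30 in K-line, 12.99 ± 0.10 in N-line and 14.24 ± 0.17 in control hearts (SD, n = 3 each). It fell in N-line hearts by 1.25 against control (SE 0.15, adjusted p = 0.00459), and was higher in K-line than in N-line hearts by 1.43 (SE 0.15, adjusted p = 0.000101).

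Bicarbonate and chloride carriers included the one member called in N-line hearts. Slc4a8, a sodium-driven exchanger of chloride for bicarbonate, read 4.87, 4.91 and 5.47 in K-line, 4.95, 4.90 and 4.84 in N-line and 5.86, 5.56 and 5.79 in control arrays. All control arrays lay above all arrays of both lines. It was detected on 1 of 3 K-line, 0 of 3 N-line and 3 of 3 control arrays. Slc4a8 thus passed the filter only through the group where it is high, so its calls add no support. It was at least 1.56-fold lower in N-line than in control hearts (fitted difference -0.84, SE 0.15, adjusted p = 0.031). In K-line hearts, where 1 of 3 arrays measured it, the fitted difference from control was -0.65 (SE 0.15, adjusted p = 0.0108). Both differences share the control arrays, and no size is given between the lines, since the probe was below background on 5 of their 6 arrays. The N-line call ended without any 1 of control 1, 2 and 3 and N-line 2, 3 and 4 (difference -0.93 to -0.78, adjusted p 0.06 to 0.137), and with the authors' values (-1.07, adjusted p = 0.0646), whereas the K-line call held without each of the 9 arrays. The other tested carriers of the family, Slc4a4 and Slc4a7, which move sodium together with bicarbonate, gave -0.25 (adjusted p = 0.284) and -0.09 (adjusted p = 0.747) in K-line hearts, and Slc4a7 varied most among K-line arrays, at 8.72, 9.26 and 8.39.

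Slc12a8, of the cation-chloride cotransporter family, read 5.81, 5.64 and 6.11 in K-line, 6.12, 6.23 and 6.16 in N-line and 6.52, 6.56 and 6.41 in control arrays. The 3 groups were stepped, with K-line lowest and control highest and no overlap between any pair. Only the K-line step from control was called, at -0.64 (SE 0.12, adjusted p = 0.00327), beside -0.32 in N-line hearts (SE 0.12, adjusted p = 0.288).

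Of 10 sodium-proton exchange probes in the class, 4 were tested and 0 were called by limma against control in either line. With an unadjusted p under 0.05 there was 1 in each line, Slc9a2 both times. Slc9a2 read 5.39, 5.60 and 5.32 in K-line, 5.98, 5.97 and 6.04 in N-line and 5.86, 5.83 and 5.54 in control arrays. The N-line arrays lay above all others, and the K-line level was -0.30 against control (SE 0.11, adjusted p = 0.0709) while the N-line level was 0.26 (SE 0.11, adjusted p = 0.4). Between the lines the difference was -0.56 (SE 0.11, adjusted p = 0.00498). Slc9a8 of the Golgi and the scaffold Slc9a3r1 gave -0.12 and 0.26 in K-line against control, with adjusted p of 0.441 and 0.141.

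**Figure D2:**
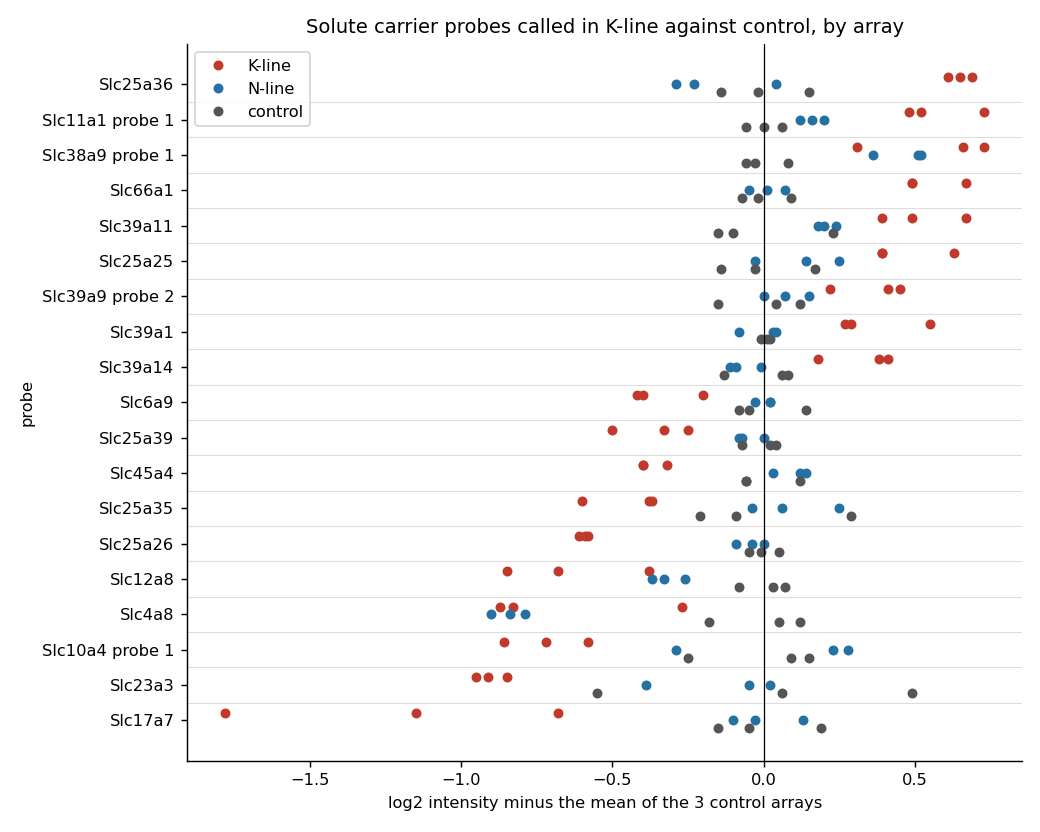
Each array's log2 intensity minus the mean of the 3 control arrays (horizontal axis) for 19 of the 20 solute carrier probes called in K-line against control, ordered by difference, with K-line, N-line and control arrays in separate colours. For every probe shown the 3 K-line arrays lie on one side of the 3 control arrays. The N-line arrays of Slc4a8, Slc12a8, Slc38a9 and Slc11a1 also lie wholly on that side.

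Sugar carriers were little covered. Of 9 probes 3 were tested, and 1 fell in K-line hearts, where lower calls made up 12.4% of all tested probes. Slc45a4, placed with sugar carriers by its family, read 7.29, 7.21 and 7.21 in K-line, 7.75, 7.64 and 7.73 in N-line and 7.73, 7.55 and 7.55 in control arrays. The K-line arrays were lowest, by 0.37 below control (log2 difference -0.37, SE 0.09, adjusted p = 0.0131). Its call ended under each of the other 3 scalings, and also without control 1 (-0.31, adjusted p = 0.0554). Slc37a4, which carries glucose 6-phosphate into the endoplasmic reticulum, read 7.86, 7.61 and 7.61 in K-line, 7.75, 8.11 and 7.91 in N-line and 7.91, 7.86 and 7.87 in control arrays. Slc2a8, an intracellular glucose transporter, read 7.54, 7.19 and 7.44 in K-line, 7.47, 7.30 and 7.31 in N-line and 7.23, 7.11 and 7.30 in control arrays. Their K-line differences were -0.19 (SE 0.11, adjusted p = 0.255) and 0.18 (SE 0.11, adjusted p = 0.281), with groups that overlapped. Of 5 tested partner genes of glucose uptake, of 12 listed, only the hexokinase Hk1 was called in K-line hearts, at 0.57 (SE 0.15, adjusted p = 0.021).

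Of 31 probes in the amino acid class 14 were tested, and in K-line hearts 1 rose and 2 fell against control. These calls were 21.4% of the tested probes of the class, against 24.3% of all tested probes. By family the class also took in Slc17a2, the vesicular amine carriers Slc18a2 and Slc18b1, and Slc7a6os. Slc38a9, a lysosomal carrier that senses arginine for growth signalling, read 6.07, 6.14 and 5.72 in K-line, 5.92, 5.77 and 5.93 in N-line and 5.38, 5.49 and 5.35 in control arrays. Arrays of both lines lay above all control arrays. The difference was 0.57 in K-line hearts (SE 0.12, adjusted p = 0.00567) and 0.47 in N-line hearts (SE 0.12, adjusted p = 0.101), and K-line minus N-line was 0.10 (SE 0.12, adjusted p = 0.556). A fit of N-line and control arrays alone called the N-line difference (adjusted p = 0.0463). Slc38a3, a glutamine carrier, lay below control on every array of both lines, at 6.56, 6.59 and 6.64 in K-line, 6.36, 6.45 and 6.24 in N-line and 6.71, 7.04 and 6.78 in control arrays. Neither difference was called, at -0.25 in K-line (SE 0.11, adjusted p = 0.113) and -0.49 in N-line hearts (SE 0.11, adjusted p = 0.0645).

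Slc17a7, a vesicular glutamate transporter best known from neurons, showed the largest difference of any tested member. It read 5.71, 6.81 and 6.34 in K-line, 7.39, 7.62 and 7.46 in N-line and 7.44, 7.68 and 7.34 in control arrays. The K-line arrays were lowest and the most spread, and the difference was -1.20 against control (SE 0.22, adjusted p = 0.00314) and -1.20 against N-line (SE 0.22, adjusted p = 0.00322). N-line and control arrays overlapped, with a difference of 0.00 (SE 0.22). Markers of atria and the conduction system moved in the same direction: 3 of 4 were called lower in K-line than in control hearts, and their summed level ran from 9.42 to 9.77 in K-line, 13.76 to 13.83 in N-line and 13.52 to 13.69 in control arrays. Myl7, the atrial myosin light chain, averaged 6.19 ± 1.96 in K-line, 13.63 ± 0.06 in N-line and 13.46 ± 0.10 in control hearts (SD, n = 3 each). Their part in the Slc17a7 difference was not tested. Against control, 2 of 6 endothelial markers were called lower in K-line hearts, 2 of 10 fibroblast markers higher and 3 lower, 1 of 3 heart muscle markers higher and 1 lower, and 0 of 2 tested adipocyte markers either way. Beside these marker counts, 12.0% of all tested probes were called higher and 12.4% lower.

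Slc6a9, a glycine transporter, read 7.85, 7.63 and 7.65 in K-line, 8.02, 8.07 and 8.07 in N-line and 8.0, 8.19 and 7.97 in control arrays. It fell by 0.34 in K-line hearts (SE 0.10, adjusted p = 0.0286), but the call ended under all 3 other scalings. It also ended without control 1, control 2, K-line 5 or K-line 6 (difference -0.37 to -0.28, adjusted p 0.0525 to 0.107). Slc38a4, a carrier of neutral amino acids, read 10.63, 10.61 and 10.28 in K-line, 10.14, 10.45 and 10.44 in N-line and 10.45, 10.02 and 10.21 in control arrays with its brighter probe. Its probes gave 0.28 (SE 0.14, adjusted p = 0.179) and 0.29 (SE 0.23, adjusted p = 0.385) against control, and the groups overlapped. Slc7a6os read 8.83, 8.33 and 8.58 in K-line, 8.48, 8.48 and 8.51 in N-line and 8.50, 8.42 and 8.35 in control arrays. That gene is not a carrier, and its groups overlapped. Of 19 listed partner genes of amino acid sensing and synthesis, 1 was tested, Gclm of glutathione synthesis, at 0.51 in K-line hearts (SE 0.19, adjusted p = 0.0712).

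The mitochondrial carriers gave calls in both directions. Of 22 Slc25 probes 15 were tested. In K-line hearts 2 of the 15 were called higher and 4 lower than in control, against 12.0% and 12.4% of all tested probes. The median difference of the 15 was -0.06. In N-line hearts 0 were called against control by limma, and 1 had an unadjusted p under 0.05. Slc25a5, an adenine nucleotide translocase that exchanges ADP for ATP, was bright on every array, at 13.87, 13.90 and 13.82 in K-line, 13.86, 13.89 and 13.87 in N-line and 13.87, 13.90 and 13.99 in control arrays. Its groups overlapped, with -0.06 in K-line hearts (SE 0.08, adjusted p = 0.659).

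Slc25a36, a carrier of pyrimidine nucleotides, read 6.75, 6.71 and 6.79 in K-line, 5.81, 5.87 and 6.14 in N-line and 6.25, 5.96 and 6.08 in control arrays. Its 3 K-line arrays agreed closely and lay above all others, by 0.66 over control (SE 0.11, adjusted p = 0.00213) and 0.81 over N-line (SE 0.11, adjusted p = 0.000616). Slc25a25, a calcium-regulated carrier of ATP-magnesium and phosphate, read 6.49, 6.49 and 6.73 in K-line, 6.24, 6.35 and 6.07 in N-line and 5.96, 6.27 and 6.07 in control arrays. It was higher in K-line than in control hearts by 0.46 (SE 0.12, adjusted p = 0.0163). Without control 1, control 3 or K-line 6 that call ended (0.38 to 0.45, adjusted p 0.0539 to 0.0641).

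Slc25a26, the carrier of S-adenosylmethionine, the methyl donor, read 8.55, 8.58 and 8.57 in K-line, 9.16, 9.07 and 9.12 in N-line and 9.15, 9.11 and 9.21 in control arrays. It had the smallest adjusted p of the members in this comparison, at -0.59 against control (SE 0.08, adjusted p = 0.000582), with N-line and control arrays overlapping. Another cofactor carrier, Slc25a51 for NAD, gave -0.07 (SE 0.13, adjusted p = 0.719). Slc25a39, a carrier of glutathione into mitochondria, read 11.95, 11.87 and 11.70 in K-line, 12.13, 12.20 and 12.12 in N-line and 12.22, 12.13 and 12.24 in control arrays. Its difference of -0.36 (SE 0.09, adjusted p = 0.0187) lost its call under median scaling and in the authors' value table. It also lost it without control 1, control 3 or K-line 6 (-0.35 to -0.29, adjusted p 0.0567 to 0.0664). Slc25a35 read 5.67, 5.45 and 5.68 in K-line, 6.01, 6.11 and 6.30 in N-line and 5.84, 6.34 and 5.96 in control arrays, a difference of -0.44 (SE 0.14, adjusted p = 0.0385). That call ended under the 3 other scalings, and without control 2 or 3, any K-line array or N-line 3 (-0.49 to -0.30, adjusted p 0.05 to 0.133). Slc25a39 is also known for its part in developing red blood cells. Of 7 tested markers of red blood cells 2 (Ank1 and Dmtn) were called lower in K-line than in control hearts, against 12.4% of all tested probes. The summed level of the list was 14.99 to 15.39 in K-line, 15.22 to 15.44 in N-line and 15.20 to 15.31 in control arrays. The part of these cells was not tested.

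Slc25a27, an uncoupling protein of the family, was called between the lines. It read 6.63, 6.32 and 6.54 in K-line, 7.18, 7.15 and 7.14 in N-line and 6.93, 6.61 and 7.08 in control arrays. The N-line arrays were highest, and K-line minus N-line was -0.66 (SE 0.13, adjusted p = 0.00403), with -0.38 for K-line (adjusted p = 0.0515) and 0.28 for N-line (adjusted p = 0.414) against control. With the authors' values the call between the lines ended (-0.37, adjusted p = 0.0507). Of 25 listed proteins of mitochondrial transport without an Slc symbol, 11 were tested. Against control, 1 was called higher and 2 lower in K-line hearts (against 12.0% and 12.4% of all tested probes), with a median of -0.12. The outer membrane channel Vdac3 rose by 0.44 (SE 0.10, adjusted p = 0.0112), while Sfxn4 fell by 0.42 (SE 0.12, adjusted p = 0.0261) and the import chaperone Timm9 fell by 0.28 (SE 0.08, adjusted p = 0.0299).

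Among the 9 tested probes of nucleoside and nucleotide sugar carriers 0 were called by limma against control in either line, and 0 had an unadjusted p under 0.05. Slc35a4 read 10.20, 10.11 and 10.17 in K-line, 9.95, 9.95 and 9.75 in N-line and 10.10, 10.09 and 10.04 in control arrays. The K-line arrays lay above and the N-line arrays below all control arrays, but by 0.08 (adjusted p = 0.537) and -0.19 (adjusted p = 0.442). K-line minus N-line was 0.28 (SE 0.09, adjusted p = 0.0469), a call that ended without any 1 of the 9 arrays (0.21 to 0.31, adjusted p 0.0609 to 0.159). Slc35e3 read 8.91, 8.87 and 9.08 in K-line, 9.26, 8.97 and 9.03 in N-line and 8.83, 9.24 and 9.05 in control arrays. Slc35e2 read 8.54, 8.43 and 8.39 in K-line, 8.36, 8.41 and 8.46 in N-line and 8.48, 8.14 and 8.28 in control arrays. In both the groups overlapped.

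Carriers of organic acids, lipids and vitamins gave 9 tested probes of 26. Against control, 2 fell and 0 rose in K-line hearts (22.2% called, against 24.3% of all tested probes). No K-line array showed either of them above background. Slc23a3, of the ascorbate transporter family, read 4.97, 4.87 and 4.91 in K-line, 5.84, 5.77 and 5.43 in N-line and 6.31, 5.88 and 5.27 in control arrays. It was at least 1.65-fold lower in K-line than in control hearts (fitted difference -0.90, SE 0.21, adjusted p = 0.0109), although the control arrays spread over more than the N-line arrays. Slc10a4, of the bile acid carrier family and found in synaptic vesicles, read 4.84, 4.98 and 5.12 in K-line, 5.98, 5.41 and 5.93 in N-line and 5.45, 5.79 and 5.85 in control arrays. It was at least 1.51-fold lower than in control (fitted difference -0.72, SE 0.16, adjusted p = 0.00885) and at least 1.6-fold lower than in N-line hearts (fitted difference -0.79, SE 0.16, adjusted p = 0.00542). The untested second probe of Slc10a4, detected on 2 K-line arrays and on no other, did not follow the first.

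The choline transporter-like protein Slc44a2 read 11.79, 11.45 and 11.75 in K-line, 11.83, 11.80 and 11.72 in N-line and 11.54, 11.66 and 11.62 in control arrays. Slc44a1 of the same family read 9.41, 9.25 and 9.40 in K-line, 9.36, 9.36 and 9.47 in N-line and 9.46, 9.35 and 9.61 in control arrays. Neither was called in any comparison. Of 8 tested partner genes of lactate and fatty acid use, of 10 on the array, Ldha rose by 0.27 (SE 0.09, adjusted p = 0.0445) and Acsl1, which activates fatty acids, fell by 0.70 in K-line hearts (SE 0.14, adjusted p = 0.00551).

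The last 3 tested carriers were not placed in the substrate classes above. In all 3 the K-line arrays lay above the control arrays, as they did for 3839 of all 19692 tested probes. Slc35f5 was left unassigned, although the other Slc35 members stand among the nucleotide sugar carriers. Slc66a1, which exports cationic amino acids from lysosomes and is not in the amino acid counts above, read 6.85, 6.85 and 7.03 in K-line, 6.37, 6.43 and 6.31 in N-line and 6.45, 6.34 and 6.29 in control arrays. It rose by 0.55 against control (SE 0.09, adjusted p = 0.00207) and by 0.54 against N-line (SE 0.09, adjusted p = 0.00231). Slc66a2 read 10.97, 11.17 and 11.22 in K-line, 10.95, 10.91 and 10.86 in N-line and 10.80, 10.82 and 10.90 in control arrays. Slc35f5 read 9.23, 9.44 and 9.25 in K-line, 8.81, 9.18 and 9.05 in N-line and 9.05, 8.65 and 9.09 in control arrays. Their differences of 0.28 (SE 0.09, adjusted p = 0.0535) and 0.37 (SE 0.14, adjusted p = 0.0721) were not called.

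The comparison of the lines asks where the active mutant and the normal transgene differ, and it does not use the control arrays for its means. The clearest member with opposite places for the lines was Slc22a23, an orphan carrier of the organic ion family. It read 9.31, 9.05 and 9.29 in K-line, 9.97, 9.81 and 10.03 in N-line and 9.43, 9.54 and 9.52 in control arrays. Every K-line array was below and every N-line array above all control arrays. K-line minus N-line was -0.72 (SE 0.10, adjusted p = 0.000767), while the differences from control were -0.28 in K-line (SE 0.10, adjusted p = 0.0733) and 0.44 in N-line hearts (SE 0.10, adjusted p = 0.0829).

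Slc18b1, a vesicular carrier of polyamines, read 6.76, 7.08 and 6.65 in K-line, 7.37, 7.45 and 7.42 in N-line and 7.08 to 7.26 in control arrays. K-line minus N-line was -0.58 (SE 0.12, adjusted p = 0.00493). That call ended under median scaling (-0.40, adjusted p = 0.0839) and with the authors' values (-0.30, adjusted p = 0.0777). Slc17a2, of the family of phosphate and organic anion carriers, read 5.11, 5.56 and 5.45 in K-line, 4.81, 4.91 and 4.81 in N-line and 5.35, 5.13 and 4.97 in control arrays. It was below background on all 3 N-line arrays and at least 1.21-fold higher in K-line than in N-line hearts (fitted difference 0.53, SE 0.13, adjusted p = 0.0153). The call ended without K-line 5 or 6 or N-line 2 or 4 (0.44 to 0.51, adjusted p 0.0509 to 0.053). Slc17a2 passed the filter only through the K-line arrays, where it is high, so its call adds no support. Smaller calls between the lines were those of the amino acid carrier Slc36a4 (0.43, adjusted p = 0.0473) and of Slc25a45 (0.27, adjusted p = 0.0473). The Slc36a4 call ended without any 1 of 7 arrays, all but control 2 and N-line 2 (0.33 to 0.49, adjusted p 0.052 to 0.163) and the Slc25a45 call without any 1 of the 9 (0.23 to 0.31, adjusted p 0.0596 to 0.128). The second Slc11a1 probe lost its call between the lines without control 2, K-line 3 or 5 or N-line 3 or 4 (0.36 to 0.47, adjusted p 0.0582 to 0.146).

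Several members called against control were called against N-line as well, and these comparisons share the K-line arrays. Beside those given above, Slc45a4 was lower by 0.47 (difference -0.47, SE 0.09, adjusted p = 0.00426), Slc25a26 by 0.55 (-0.55, SE 0.08, adjusted p = 0.000986), Slc25a35 by 0.54 (-0.54, SE 0.14, adjusted p = 0.0175), Slc6a9 by 0.34 (-0.34, SE 0.10, adjusted p = 0.029) and Slc25a39 by 0.31 (-0.31, SE 0.09, adjusted p = 0.0338). Slc23a3 was at least 1.5-fold lower in K-line than in N-line hearts (fitted difference -0.76, SE 0.21, adjusted p = 0.0242). Other scalings ended 4 of these calls. That of Slc45a4 ended under median scaling (-0.27, adjusted p = 0.142) and with the authors' values (-0.20, adjusted p = 0.128), and that of Slc25a35 with the authors' values (-0.30, adjusted p = 0.133). Those of Slc6a9 (-0.15 to -0.08) and Slc25a39 (-0.23 to -0.17) ended under all 3 scalings. Some calls between the lines ended when 1 array was left out. These were Slc6a9 (K-line 5 and 6 and every N-line array, -0.36 to -0.30, adjusted p 0.0662 to 0.0849), Slc25a39 (the same arrays, -0.33 to -0.24, adjusted p 0.0564 to 0.111), Slc23a3 (K-line 5 and 6 and N-line 2 and 3, -0.76 to -0.68, adjusted p 0.0623 to 0.0838) and, each with a pair of arrays, Slc39a1 (K-line 6, N-line 3; 0.28 to 0.33, adjusted p 0.0643 to 0.0662) and Slc25a35 (K-line 5, N-line 4; -0.46, adjusted p 0.0581 to 0.0697). The Slc39a14 call ended without N-line 2 or 4 (0.38, adjusted p 0.0519 to 0.0532).

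**Figure D3:**
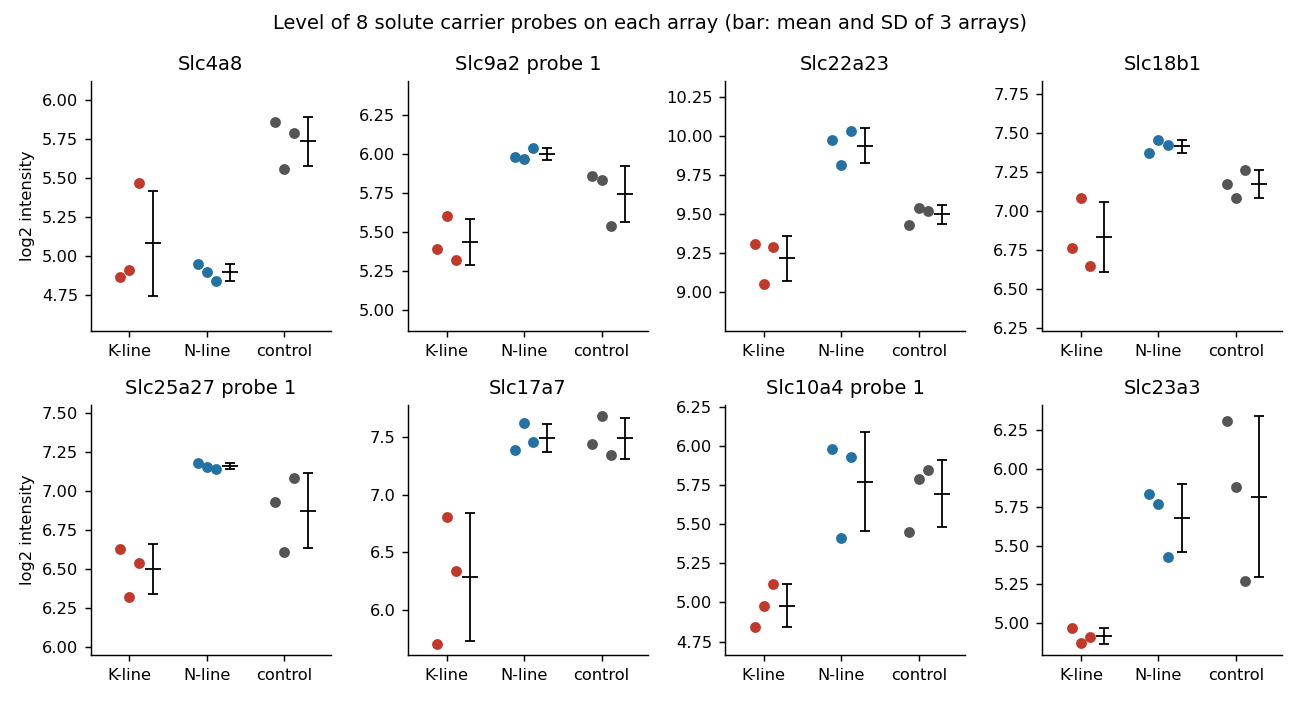
Log2 intensity (vertical axis, a separate scale in each panel that does not start at 0) of 8 solute carrier probes on each array, with the mean and SD of the 3 arrays of K-line, N-line and control hearts as bars. Slc4a8 is low in both lines, Slc22a23 has K-line arrays below and N-line arrays above control, and Slc17a7, Slc10a4 and Slc23a3 are low in K-line.

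How many carriers stood higher or lower in K-line hearts moved with the scaling of the arrays, as it did for all probes. With quantile normalization of the 9 arrays together, 9 members were called higher and 11 lower (45.0% of calls higher, against 49.2% over all probes). Median scaling gave 15 and 7 (68.2%, against 70.5%), normalization of each slide alone 20 and 8 (71.4%, against 75.1%), and the authors' values 27 and 7 (79.4%, against 84.1%). The median over all tested probes was -0.01, 0.09, 0.11 and 0.20 under these scalings, and that over the members -0.00, 0.13, 0.14 and 0.23, so the members shifted with the array. Under all of the 3 other scalings 16 of the 20 K-line calls were kept, and 0 changed direction. Those that ended, of Slc6a9, Slc25a35, Slc45a4 and Slc25a39, were all lower calls. Among calls that were kept, the authors' values moved some sizes by over 1.5 times. Against control these were, beside the Slc39 probes above, Slc66a1 (0.86), Slc25a25 (0.76) and Slc12a8 (-0.40). Between the lines they were Slc66a1 (0.85), Slc39a14 (0.66), Slc36a4 (0.72), Slc25a45 (0.54), the second Slc11a1 probe (0.75), Slc17a2 (0.99), Slc35a4 (0.43), Slc9a2 (-0.36) and Slc25a26 (-0.36). Calls that held under every setting in which their probe was tested were 12. Among the 12, Slc25a36, Slc11a1, Slc38a9, Slc66a1 and Slc39a11 were higher in K-line than in control hearts. Slc17a7, Slc23a3, Slc10a4, Slc4a8, Slc12a8 and Slc25a26 were lower. A stricter filter on dim probes left out Slc38a9, Slc10a4, Slc23a3 and Slc4a8, so their calls were not tried there. Slc4a8 also passed the filter in use only through the control arrays, where it is high.

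**Figure D4:**
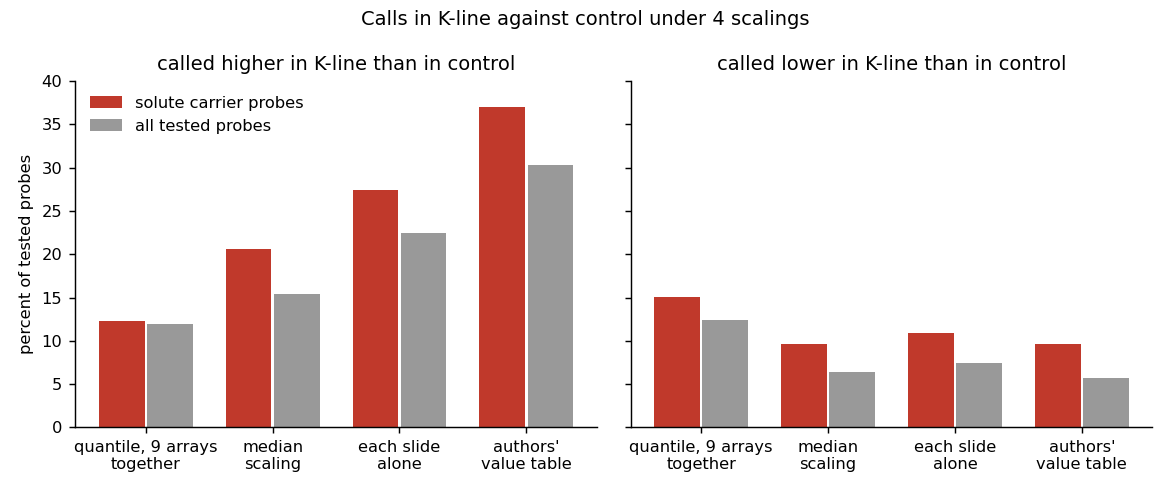
Percent of tested probes (vertical axis) called higher (left) or lower (right) in K-line than in control hearts under 4 scalings, for the solute carrier probes and for all tested probes. Higher calls make up 12.0% of all tested probes with quantile normalization of the 9 arrays together and 30.3% in the authors' value table, and the carriers follow.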

How the data were processed

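Per the labels' protocols, Qiagen RNeasy columns gave the RNA, which was labelled with the Illumina TotalPrep kit. Per the file headers, the authors deposited each probe's mean bead intensity from BeadStudio 2.3.47 (the version is also in the submitters' processing notes) without normalization. The deposited detection score is a fraction that is higher for brighter probes, and 1 minus it served as the detection p-value. The deposited bead numbers and bead spread only described the arrays: a member probe had a median of 34 beads. The authors' value table holds background-subtracted intensity, how it was normalized is not stated there, and it was an alternative only, as log2 after negative values were set to 0 and 16 was added.

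Intensities were corrected with limma 3.58.1 (R 4.3.3) by normexp with noise from the detection p-values and an offset of 16, quantile normalized over 9 arrays and put on the log2 scale. Probes detected at p under 0.05 on at least 3 arrays entered 1 limma model with 3 group means (lmFit, eBayes), with Benjamini-Hochberg adjustment at 0.05. The fit was tested on simulated data. No pair of arrays shared more than 327 raw values, so all 9 were kept.

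Of 11857 codes in the probe class used, 9796 (82.6%) hold a number found among RefSeq's mouse gene numbers (GRCm38.p6), and that reading is inferred. Promoters were in the RefSeq table for 92 of the 125 genes. Probe coordinates were not used. The members and lists were chosen with earlier results of these data known, and the motifs after seeing the values. Per-array values are given for the 10 largest rises and falls called per comparison, where the higher group's 3 arrays all detected the probe, and for the 3 brightest tested members of each class. Slc38a3, Slc9a2 and Slc4a7 were singled out after their values were seen. The alternatives were other scalings, background settings and filters, leaving out each array and a replicate block. The number of arrays limits precision. The transgene's own level, and the values of some members, are not reported here.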

Additional observations from a re-analysis of the deposited data

Results flagged for a closer look

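Slc22a23 and Slc35a4 stood on opposite sides of control in the lines: every array of one line lay above all control arrays and every array of the other below. For Slc22a23, lower in K-line and higher in N-line hearts, K-line minus N-line was -0.72 (limma, adjusted p = 0.000767). For Slc35a4, higher in K-line and lower in N-line hearts, it was 0.28 (limma, adjusted p = 0.0469). K-line arrays lay on their own slide and also differed from the others in Xist and Y-linked genes, so line, slide and apparent sex cannot be told apart.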

How the results depend on the processing

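No alternative reversed a result. Over all alternatives that tested the probe, 12 of 20 K-line against control calls, 0 of 1 N-line call and 9 of 23 calls between the lines were kept. The count of members called in K-line against control was 34 with the authors' value table, with 15 higher under median scaling, 20 with each slide normalized alone and 27 in the authors' table, and with 7 lower under median scaling and 7 in the authors' table. Leaving out 1 array gave 14 to 21 calls (6 to 9 higher, 8 to 12 lower). In N-line against control, the authors' table, no dim-probe filter and the replicate block each gave 0 calls and so 0 lower. The stricter filter also gave 0 calls, but it left out Slc4a8, the only member called, without testing it. The replicate block was a term for the array number, fitted to all 9 arrays. Control and N-line arrays share the numbers 2 and 3, and a K-line array also has the number 3. No background correction, an offset of 50 and a fit of the compared groups alone gave 2 calls, of which 1 was higher (Slc22a23 in the first pair, Slc38a9 in the last). Leaving out 1 array gave 0 to 2 calls (0 to 1 higher, 0 to 1 lower). Deviations of same-numbered control and N-line arrays correlated at 0.224 and 0.109, and those of control 1 and N-line 3 at 0.2. With 2 shared numbers the arrays are not shown to be paired. No paired analysis was possible for the K-line comparisons because they share only the number 3 with the other groups. K-line minus N-line had 18 higher calls with each slide normalized alone and 27 in the authors' table, which had 7 lower. Leaving out 1 array gave 15 to 22 calls (4 to 9 higher, 10 to 14 lower). The causes were not tested. Without the members on chromosome X, an alternative added after seeing the data, the counts of calls were the same. Probes not above background limit the differences of Slc4a8 in N-line, of Slc23a3, Slc10a4 and Slc39a9 in K-line against control and of Slc17a2, Slc23a3 and Slc10a4 between the lines to bounds.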
